A study of Mus musculus with 15 samples.

Results

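The 10 genes described here, Fkbp5, Tsc22d3, Zbtb16, Sgk1, Fam107a, Mt1, Mt2, Cdkn1a, Pdk4 and Angptl4, are known to respond to glucocorticoid hormone or to fasting. They were taken by gene name from a fixed list, which was chosen with earlier results of these data known. All 10 were found among the 55536 genes of the study. The RNA came from skeletal muscle of 15 mice aged 2 months and labelled male. There were 5 wild type mice (controls), 5 labelled PdgfrB Knock Out and 5 labelled PdgfrB D489V, a change described by the submitters as constitutively active. Both alleles are described as specific to myogenin-expressing cells, the differentiating muscle cells and fibres. Other cells of the tissue, such as mural cells and fibroblasts, which also use this receptor for platelet-derived growth factor, contribute RNA to every sample. The labels do not name the muscle, strain, litter, feeding state or time of day, so p-values measure the spread between these samples, and replicate numbers are names only.

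Glucocorticoids are released by the adrenal gland under stress, during fasting and on a daily rhythm. The hormone binds the glucocorticoid receptor, a transcription factor held in the cytoplasm by Hsp90 chaperones, and the receptor then enters the nucleus and binds DNA as a dimer. In muscle its targets restrain growth and inflammation and, together with the fatty acid sensing PPAR factors, move fuel use from glucose to fat. Several of these genes also answer to other inputs, such as zinc for the metallothioneins and p53 for Cdkn1a.

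The deposited values are normalized counts. Their sum per sample was between 29815559 and 36489777, and the reads assigned to genes, estimated from the spacing of low values, were 25.7 M to 39.6 M (M for mega). The targeted gene, Pdgfrb, was read at 1754 ± 72.9 normalized counts (SD, n = 5) in controls, 1308 ± 266 (SD, n = 5) in knockout and 906 ± 106 (SD, n = 5) in D489V. Against control, Pdgfrb fell by 0.96 on the log2 scale in D489V (adjusted p = 0.00168). In the group labelled knockout it was at -0.45 and was not called (adjusted p = 0.294). All knockout samples still lay below all controls in Pdgfrb, at 958 to 1628 against 1673 to 1848 (exact two-sided permutation p = 0.00794). Groups did not overlap for 2.24% of all genes in that comparison. Knockout against D489V gave 0.51 (adjusted p = 0.0258), and 0.56 without knockout 3 (adjusted p = 0.0318). The library labelled knockout 3 had 3165 normalized counts of Xist, the RNA of the inactive X chromosome in females, against at most 101 in the others, which puts its male label in doubt. Calls that change without this library are given both ways. Among all genes, 2273 were called in knockout against D489V without it. Defining muscle fibre markers were read in all samples: the sum of 8 of them was 6193715 to 9064255.

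None of the 10 genes passed the test in knockout against control or in D489V against control, and 4 passed in knockout against D489V. A gene was called at an adjusted p under 0.05 over all genes tested by limma on log2(value + 1). Over all genes, 0.00656% were called in knockout against control (1 of 15234), 0.0587% in D489V against control (9 of 15339) and 20.8% in knockout against D489V (3181 of 15299). At an unadjusted p under 0.05 there were 5 of the 10 genes in knockout against control, where 15.1% of all genes had such a p. In D489V against control there were 6 of the 10, beside 9.43% of all genes, and in knockout against D489V 6 of the 10, beside 37.7%. The 10 genes were chosen with earlier results of these data known, so counts of them beside all genes are a description, not a test.

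The 4 genes called between the mutant groups were Mt1, Cdkn1a and Angptl4, lower in knockout, and Fam107a, higher in knockout. Without knockout 3, 2 of these were called, Mt1 (-1.24, adjusted p = 0.0132) and Cdkn1a (-0.86, adjusted p = 0.0404). Groups did not overlap for 1 of the 10 genes in knockout against control (Fam107a, above), where 2.24% of all genes did not overlap. In D489V against control these were 3 of the 10 (Mt1, Mt2 and Cdkn1a, above), beside 2.16% of all genes, and in knockout against D489V 1 of the 10 (Mt1), beside 13.9%. The median log2 difference of the 10 genes was 0.38 in knockout against control, 0.55 in D489V against control and -0.21 in knockout against D489V, while the medians over all genes tested were 0.0106, 0.00189 and 4.02e-04. Both comparisons with control use the same 5 control samples.

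**Figure D1:**
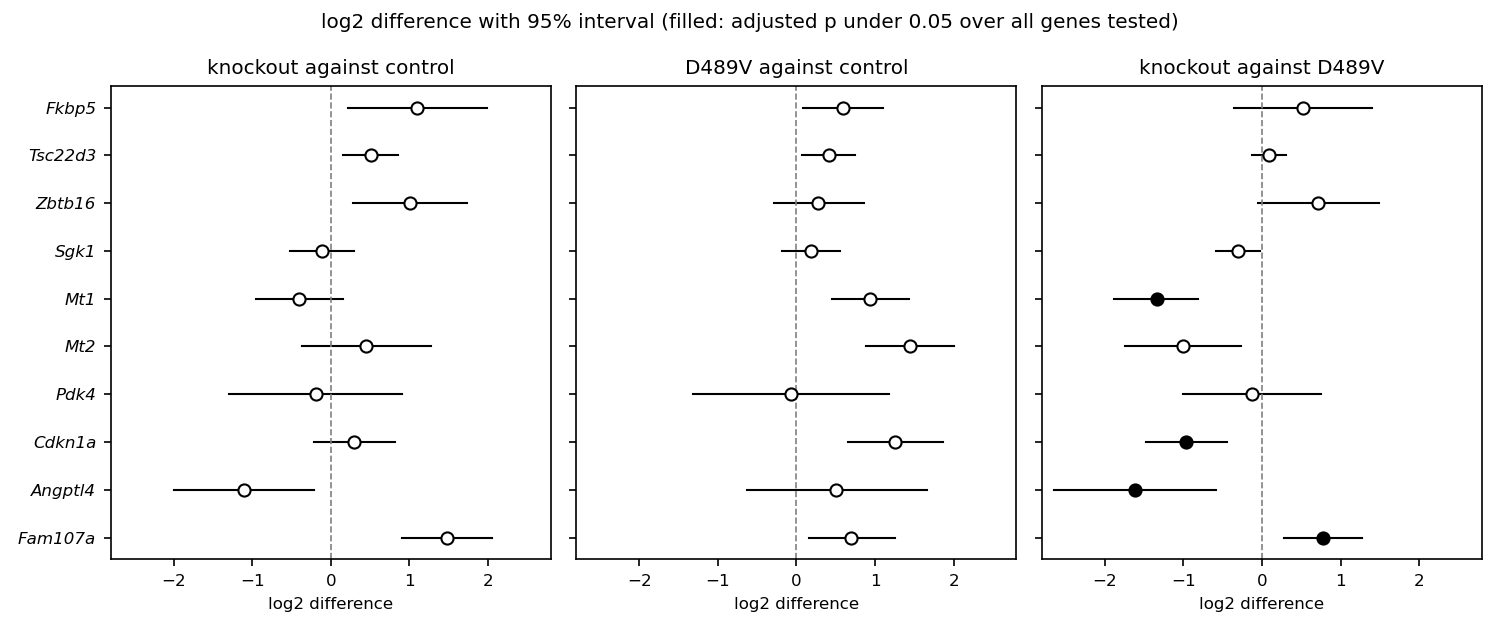
Log2 difference (horizontal axis) of each gene in the 3 comparisons, with its 95% interval; filled points are called at an adjusted p under 0.05 over all genes tested. No point is filled in the 2 comparisons with control, and Mt1, Cdkn1a, Angptl4 and Fam107a are filled in knockout against D489V.

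Per kilobase of merged exons, a scale on which genes can be compared, Pdk4 had the highest mean level over the 15 samples, at 4022 normalized counts. Tsc22d3 (1204) and Sgk1 (1008) came next. Mt1 (383), Cdkn1a (378), Mt2 (356) and Angptl4, just below it, lay close together, followed by Zbtb16 (188), Fkbp5 (128) and Fam107a (29.9). The genes also differed in how steady they were. Sgk1 and Tsc22d3 varied by a coefficient of variation of 19.5% and 19.6% over all samples, and Angptl4 by 70.5%.

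Fkbp5 (ENSMUSG00000024222, chromosome 17, 28399094 to 28517527, minus strand, protein-coding) encodes a co-chaperone of Hsp90 that lowers the receptor's affinity for hormone, and is itself induced by the receptor. Controls 1 to 5 gave 509, 553, 942, 726 and 882 normalized counts. Knockout 1 to 5 held 1749, 734, 723, 2543 and 3291, and D489V 1 to 5 held 1279, 711, 873, 1015 and 1609. Knockout 1, 4 and 5 were the 3 highest of all 15 samples, whereas knockout 2 and 3 lay inside the range of the controls. The log2 difference from control was 1.10 in knockout (SE 0.41, adjusted p = 0.305) and 0.59 in D489V (SE 0.23, adjusted p = 0.455). In order of mean level the groups were control, D489V and knockout, at 722 ± 192, 1097 ± 354 and 1808 ± 1126 (SD, n = 5), and no neighbours in this order differed beyond their spread.

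**Figure D2:**
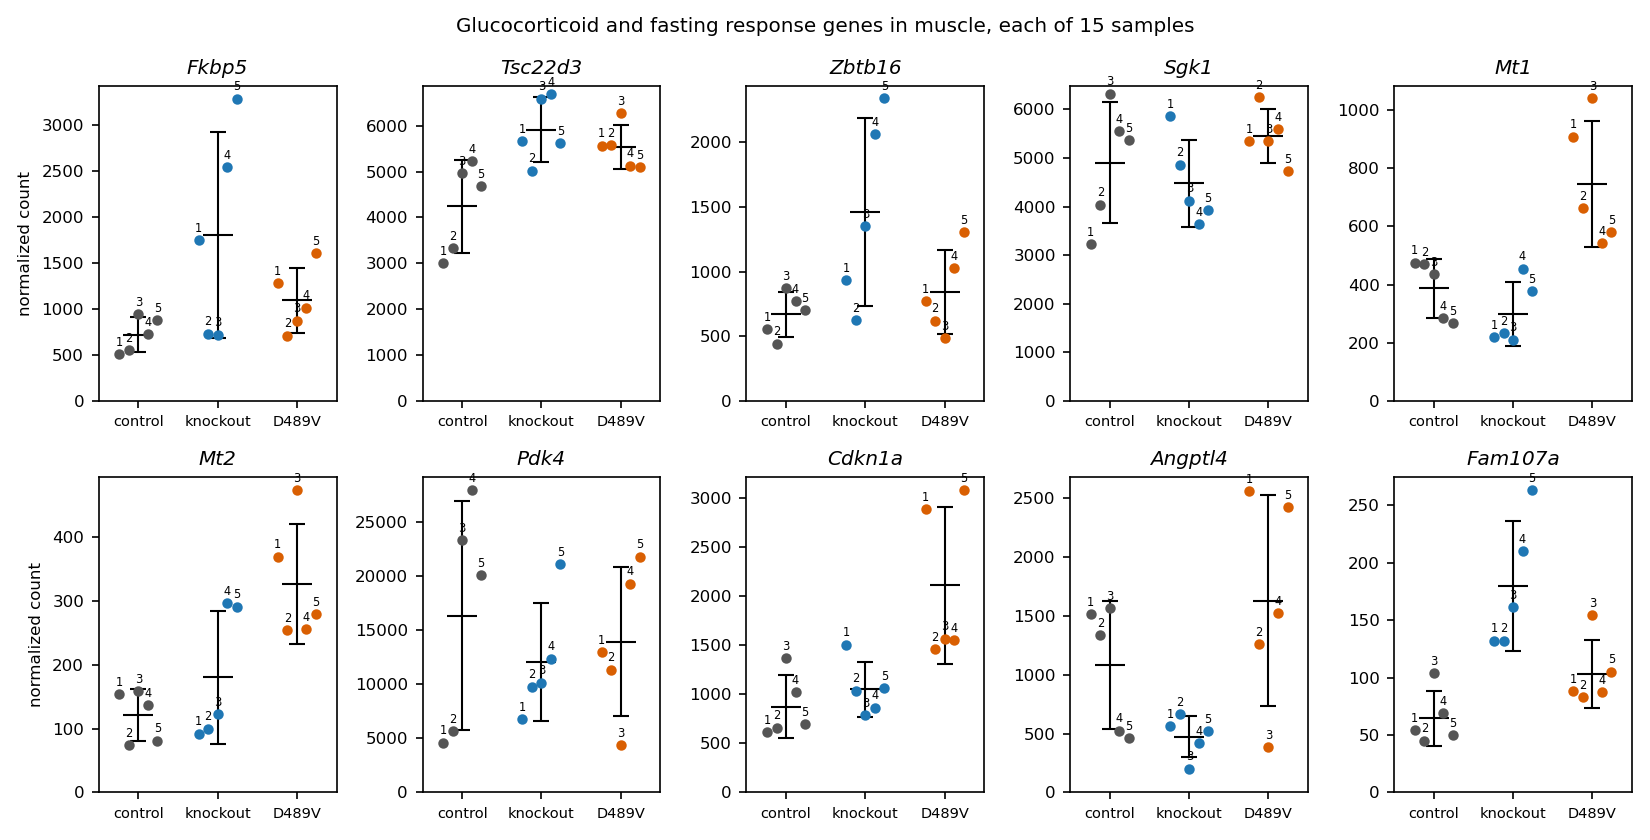
Normalized count (vertical axis, from 0) of each of the 10 genes in every sample, by group; points carry replicate numbers, and the bar and whiskers are the group mean and SD (n = 5). Fkbp5 and Zbtb16 are highest in knockout 4 and 5, Mt1, Mt2 and Cdkn1a stand above all controls in all 5 D489V samples, and Pdk4 is low in controls 1 and 2.

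Zbtb16 (ENSMUSG00000066687, chromosome 9, 48654297 to 48836222, minus strand, protein-coding) encodes the zinc finger repressor PLZF. Controls 1 to 5 held 554, 443, 875, 773 and 704 normalized counts, knockout 1 to 5 held 933, 627, 1352, 2065 and 2342, and D489V 1 to 5 held 774, 620, 488, 1025 and 1307. Knockout 3, 4 and 5 were the 3 highest samples, with knockout 2 inside the control range, and D489V spread around the controls. The log2 difference from control was 1.01 in knockout (SE 0.33, adjusted p = 0.302) and 0.28 in D489V (SE 0.26, adjusted p = 0.773). Between knockout and D489V it was 0.72 (SE 0.36, adjusted p = 0.158). None of these passed. The difference between knockout and D489V passed in 2 of 18 alternatives, without knockout 2 (0.99, adjusted p = 0.0495) and with the replicate number added (adjusted p = 0.0449).

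Tsc22d3 (ENSMUSG00000031431, chromosome X, 140539528 to 140600659, minus strand, protein-coding) encodes GILZ, a leucine zipper protein that restrains inflammatory transcription factors. The controls, 1 to 5, held 2999, 3324, 4967, 5228 and 4677 normalized counts. Knockout 1 to 5 held 5660, 5021, 6586, 6680 and 5618, and D489V 1 to 5 held 5563, 5576, 6276, 5126 and 5088. Controls 1 and 2 were the lowest of all samples, and the other controls came up to the lower end of both mutant groups. Log2 differences were 0.51 in knockout against control (SE 0.16, adjusted p = 0.302) and 0.41 in D489V against control (SE 0.16, adjusted p = 0.418). Knockout and D489V differed by 0.09, with a 95% interval from -0.12 to 0.31.

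Sgk1 (ENSMUSG00000019970, chromosome 10, 21882184 to 21999903, plus strand, protein-coding) encodes a kinase named for its induction by serum and glucocorticoid. Its promoter is shown because it holds a pair of receptor motifs. The 6-base motif that 1 receptor of the dimer reads was searched as AGAACA on both strands, and the pair as 2 such motifs facing each other with 3 bases between, so that each pair also counts as 2 single motifs. Of 32851 promoters in the RefSeq table (GRCm38.p6), each 250 bases before to 50 after a start, 19.0% held a single motif and 3 (0.00913%) held a facing pair. Of the 10 genes, 8 had an entry in that table, with 18 starts in all. Zbtb16 and Angptl4 had none. One of the 6 Sgk1 starts held a facing pair, at chr10:21993640-21993939 on the plus strand, printed with the pair in capitals:
Sgk1: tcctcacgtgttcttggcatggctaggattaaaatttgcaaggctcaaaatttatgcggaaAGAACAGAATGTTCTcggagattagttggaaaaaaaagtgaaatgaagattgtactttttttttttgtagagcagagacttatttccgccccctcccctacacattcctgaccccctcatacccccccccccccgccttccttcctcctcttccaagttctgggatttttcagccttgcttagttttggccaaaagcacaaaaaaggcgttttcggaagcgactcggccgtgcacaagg

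The pair begins at base 62 of this window, counted from 1 at its 5′ end, and a match of letters does not show that the receptor binds there. Sgk1 held 3227, 4040, 6326, 5556 and 5367 normalized counts in controls 1 to 5. In knockout 1 to 5 it held 5859, 4865, 4119, 3631 and 3925, and in D489V 1 to 5 it held 5342, 6248, 5348, 5588 and 4728. Control 1 was the lowest and control 3 the highest of all 15 samples, so the controls alone spanned both mutant groups. The log2 difference was -0.11 in knockout against control (95% interval -0.52 to 0.30, adjusted p = 0.779) and 0.19 in D489V against control (95% interval -0.18 to 0.55, adjusted p = 0.765). Between knockout and D489V it was -0.30 (95% interval -0.58 to -0.02, adjusted p = 0.110). That difference passed in 1 of 18 alternatives, without knockout 1 (-0.40, adjusted p = 0.0320). Within knockout, the samples with the most Fkbp5 and Zbtb16 (4 and 5) had the least Sgk1.

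Fam107a (ENSMUSG00000021750, chromosome 14, 8296274 to 8318023, minus strand, protein-coding) encodes an actin-associated protein that rises under stress and glucocorticoid in brain. It was the least abundant of the 10 genes and the only one whose knockout samples all lay above all controls. Controls 1 to 5 held 54, 45, 104, 69 and 50 normalized counts, knockout 1 to 5 held 132, 132, 161, 210 and 263, and D489V 1 to 5 held 88, 83, 154, 87 and 105. The D489V samples lay between the other groups and overlapped both. Group means were 64.4 ± 23.9, 103 ± 29.5 and 180 ± 56.5 (SD, n = 5) in control, D489V and knockout.

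The log2 difference of Fam107a in knockout against control was 1.48 (SE 0.26), with an adjusted p = 0.170 over all genes and an exact two-sided permutation p of 0.00794, the smallest that 5 against 5 samples can give. In one fit over all 15 samples it passed (adjusted p = 0.0319). D489V was 0.70 above control (SE 0.25, adjusted p = 0.390). Against D489V, Fam107a rose in knockout by 0.78 on the log2 scale (SE 0.23, adjusted p = 0.0328). It lost that call in 6 of 18 alternatives: without knockout 3 the difference was 0.80 (adjusted p = 0.0506), and without D489V 1, 2 or 4 or knockout 4 or 5 it was 0.63 to 0.73 (adjusted p 0.0528 to 0.0820). In bulk tissue, a change in the number of cells that express a gene and a change in RNA per cell cannot be told apart, which holds for every gene described.

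Mt1 (ENSMUSG00000031765, chromosome 8, 94179082 to 94180327, plus strand, protein-coding) and Mt2 (ENSMUSG00000031762, chromosome 8, 94172664 to 94173568, plus strand, protein-coding) encode metallothioneins, small cysteine-rich proteins that bind zinc and copper. They are neighbours, with 5513 bases between them. The factor MTF1 induces both through metal response elements when zinc is high, and glucocorticoid induces them through separate sites. Their promoters are shown because this feature is shared by a pair of genes that were both higher in every D489V sample than in every control. Metal response elements, searched as TGCGCNC or TGCACNC on both strands, are in capitals. The windows are chr8:94172368-94172667 and chr8:94178839-94179138 on the plus strand in the RefSeq table (GRCm38.p6):
Mt2: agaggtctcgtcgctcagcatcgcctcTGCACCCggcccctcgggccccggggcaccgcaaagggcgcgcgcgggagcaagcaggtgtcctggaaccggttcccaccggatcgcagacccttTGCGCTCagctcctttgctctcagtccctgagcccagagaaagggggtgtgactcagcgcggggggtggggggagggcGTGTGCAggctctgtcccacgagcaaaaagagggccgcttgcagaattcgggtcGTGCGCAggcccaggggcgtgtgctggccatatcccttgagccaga
Mt1: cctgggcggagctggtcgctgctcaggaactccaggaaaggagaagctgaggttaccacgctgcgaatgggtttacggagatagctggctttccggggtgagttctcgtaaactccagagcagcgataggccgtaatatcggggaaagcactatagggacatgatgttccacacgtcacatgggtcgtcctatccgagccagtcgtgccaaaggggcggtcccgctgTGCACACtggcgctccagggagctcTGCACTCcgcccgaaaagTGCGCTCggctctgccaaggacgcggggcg

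Mt2 held 4 such elements and Mt1 held 3. Both Cdkn1a starts held 0, although Cdkn1a was also higher in every D489V sample than in every control. Among the other starts searched, those with an element belonged to Sgk1 and Fam107a and held 1 each. The D489V samples of Sgk1 and Fam107a overlapped the controls. Of all promoters in the table, 25.7% held at least 1, 1.97% at least 3 and 0.517% at least 4. Exons of GENCODE M21 cover 4 bases of the Mt2 window and 57 bases of the Mt1 window. The longest run of bases shared by any Mt1 and Mt2 transcripts was 20.

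Mt1 held 475, 469, 436, 285 and 268 normalized counts in controls 1 to 5. In knockout 1 to 5 it held 219, 232, 211, 455 and 378, and in D489V 1 to 5 it held 908, 662, 1040, 542 and 580. Every D489V sample was above every control and every knockout sample. Log2 differences were 0.94 in D489V against control (SE 0.22, adjusted p = 0.162, exact permutation p = 0.00794) and -0.40 in knockout against control (SE 0.25, adjusted p = 0.434). Mt1 was lower in knockout than in D489V and fell by 1.34 on the log2 scale (SE 0.25, adjusted p = 0.00593). It was the 1 gene of the 10 that passed in this comparison under all 18 alternatives.

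Mt2 held 154, 74, 158, 137 and 81 normalized counts in controls 1 to 5, then 92, 100, 122, 296 and 291 in knockout 1 to 5 and 369, 254, 473, 256 and 279 in D489V 1 to 5. All D489V samples lay above all controls, and knockout 4 and 5 reached the D489V range while knockout 1 to 3 stayed in the control range. The log2 difference was 1.45 in D489V against control (SE 0.26), the greatest of the 10 genes in that comparison, with an adjusted p = 0.0638 and an exact permutation p of 0.00794. With array weights it passed (adjusted p = 0.0321). Knockout and D489V means of Mt2 were 180 ± 104 and 326 ± 94.5 (SD, n = 5), with a 95% interval of the log2 difference from -1.74 to -0.26 (adjusted p = 0.0553). That difference passed with array weights (adjusted p = 0.0412) and without knockout 4 (-1.23, adjusted p = 0.0286) or knockout 5 (-1.22, adjusted p = 0.0349).

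Cdkn1a (ENSMUSG00000023067, chromosome 17, 29090976 to 29100727, plus strand, protein-coding) encodes p21, an inhibitor of cyclin-dependent kinases induced by p53 and, in muscle, by FoxO factors and glucocorticoid. Controls 1 to 5 held 612, 660, 1364, 1021 and 693 normalized counts, knockout 1 to 5 held 1504, 1037, 785, 861 and 1064, and D489V 1 to 5 held 2881, 1455, 1564, 1551 and 3078. All D489V samples exceeded all controls, and D489V 1 and 5 were the highest of the 15 samples. Knockout 1 was the 1 knockout sample inside the D489V range. The log2 difference was 1.26 in D489V against control (SE 0.28, adjusted p = 0.114, exact permutation p = 0.00794) and 0.30 in knockout against control (SE 0.23, adjusted p = 0.518). Cdkn1a was lower in knockout than in D489V and fell by 0.96 (SE 0.24, adjusted p = 0.0188), and it passed in 17 of 18 alternatives, the exception being without D489V 1 (-0.83, adjusted p = 0.0529).

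Pdk4 (ENSMUSG00000019577, chromosome 6, 5483351 to 5496309, minus strand, protein-coding) encodes the kinase that shuts the pyruvate dehydrogenase complex, so that muscle spares glucose and burns fat during fasting. The spread within each group exceeded the differences between the means. In controls 1 to 5 there were 4620, 5687, 23366, 27971 and 20084 normalized counts of Pdk4, so that the highest control was 6.05 times the lowest. Knockout 1 to 5 held 6760, 9799, 10156, 12370 and 21149, and D489V 1 to 5 held 12964, 11362, 4359, 19333 and 21833. The controls fell into a low pair and a high trio, with no control between 5687 and 20084. Log2 differences were -0.19 in knockout (95% interval -1.30 to 0.91) and -0.07 in D489V (95% interval -1.31 to 1.18), with adjusted p of 0.862 and 0.980, and its sign changed in 2 and 5 of 18 alternatives. These intervals do not show that Pdk4 was alike in the groups.

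Angptl4 (ENSMUSG00000002289, chromosome 17, 33773750 to 33781830, minus strand, protein-coding) encodes a secreted inhibitor of lipoprotein lipase that is induced by fasting, PPAR factors and glucocorticoid and is abundant in fat. Controls 1 to 5 held 1518, 1338, 1565, 525 and 462 normalized counts, knockout 1 to 5 held 566, 666, 202, 419 and 521, and D489V 1 to 5 held 2560, 1261, 382, 1527 and 2428. Controls 4 and 5 were at the level of the knockout samples, and D489V 3 was below all controls. The log2 difference was -1.11 in knockout against control (SE 0.41, adjusted p = 0.306) and 0.51 in D489V against control (SE 0.53, adjusted p = 0.799). Angptl4 was lower in knockout than in D489V and fell by 1.62 (SE 0.47, adjusted p = 0.0323), the greatest difference of the 10 genes. It lost that call in 7 of 18 alternatives: without knockout 3 it was -1.34 (adjusted p = 0.0660), and without D489V 1, 2 or 5 or knockout 4 or 5 it was -1.68 to -1.39 (adjusted p 0.0542 to 0.0851). The last such alternative was robust eBayes (adjusted p = 0.0575).

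Adipocyte markers moved with Angptl4. Of 10 adipocyte markers, 7 were called lower in knockout than in D489V and 0 higher, beside the 20.8% of all genes called. The median log2 difference of the 10 markers was -1.86. Their summed level was 72342 to 140339 in controls, 49784 to 111782 in knockout and 114835 to 179892 in D489V, and no marker was at 0 in any sample. Car3, which slow fibres also make, alone held 25812 to 98726 of these normalized counts. Without it, a choice made after the values were seen, the sum was 7692 to 73898 in controls, 13056 to 23972 in knockout and 31697 to 108516 in D489V. Controls 4 and 5, with 7692 and 9977, were the controls low in Angptl4, and D489V 3, with 31697, was the D489V sample low in Angptl4. The part of adipocyte RNA in the Angptl4 difference was not tested.

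**Figure D3:**
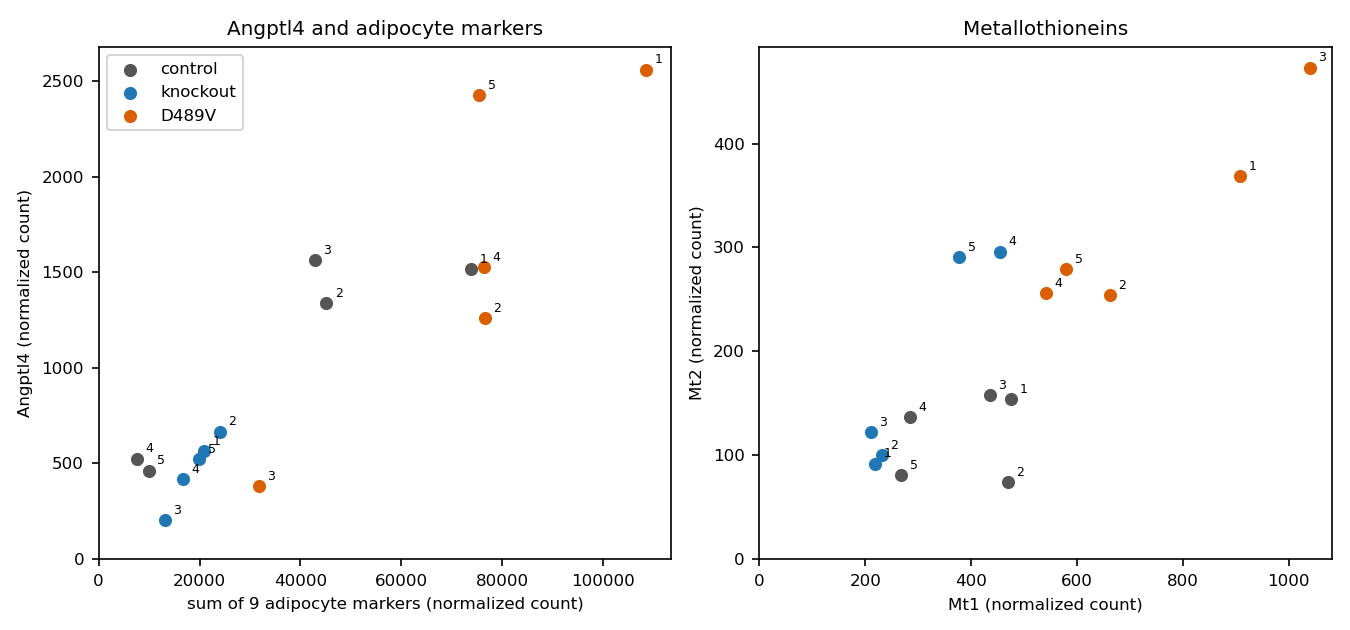
Left, Angptl4 (vertical axis) against the sum of 9 adipocyte markers without Car3 (horizontal axis); right, Mt2 (vertical axis) against Mt1 (horizontal axis); all are normalized counts, points are samples coloured by group and labelled by replicate. All 5 knockout samples, controls 4 and 5 and D489V 3 are low on both axes on the left, and D489V 3 combines a low Angptl4 of 382 with the highest Mt1 (1040) and Mt2 (473).

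The metallothioneins were high in a sample where Angptl4 was low. D489V 3 had the least adipocyte RNA of its group and the most Mt1 and Mt2 of all 15 samples. This is 1 sample, and it also stood apart from its group in markers of other cells. Schwann cell markers summed to 50426 in D489V 3, against 12548 to 15328 in the other D489V samples. Slow fibre markers summed to 198963, against 40021 to 62437. The part of adipocyte RNA in the differences of Mt1, Mt2 and Cdkn1a was not tested.

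Across the samples, 2 sets stood out for the number of genes at the end of the range. Control 1 was the lowest of all 15 samples in 4 genes (Fkbp5, Tsc22d3, Sgk1 and Cdkn1a) and control 2 in 3 (Zbtb16, Mt2 and Fam107a). Knockout 5 was the highest in 3 (Fkbp5, Zbtb16 and Fam107a) and D489V 3 in 2 (Mt1 and Mt2). Being among the 5 highest samples was most frequent in D489V 5, for 7 of the 10 genes, and in knockout 5, for 6. Controls 1, 2 and 5 were among the 5 lowest for 7, 8 and 6 genes. Knockout 3 was also among the 5 lowest for 6 genes, and it was the lowest of all 15 samples in Mt1 and Angptl4.

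**Figure D4:**
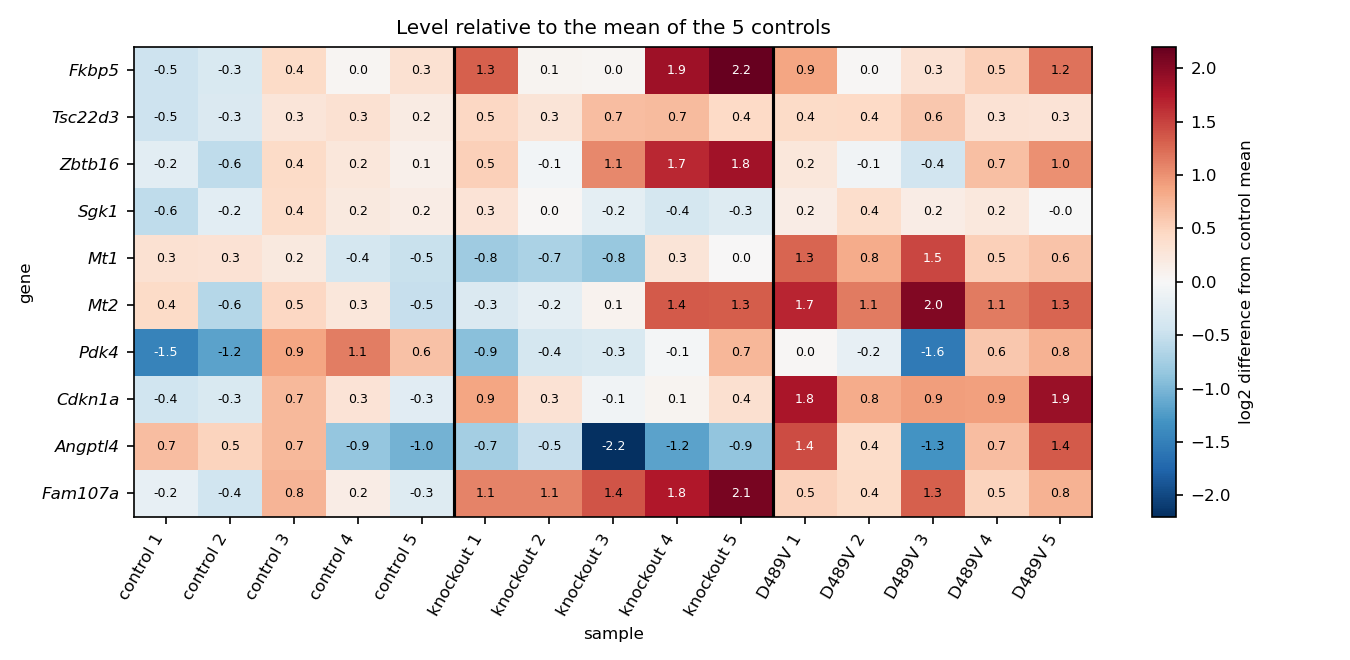
Log2 level of each gene (rows) in each sample (columns) relative to the mean of the 5 controls, with red above and blue below that mean; black lines part control, knockout and D489V. Controls 1 and 2 are below the control mean in Fkbp5, Tsc22d3, Zbtb16, Sgk1, Pdk4, Cdkn1a and Fam107a, and the row of Mt2 is above it in all D489V samples.

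The genes did not vary as 1 block. After group means were removed, Pearson's r over the 15 samples was above 0 for 34 of the 45 pairs of genes, with a median of 0.27 and a range from -0.60 to 0.82. It was 0.6 or more for 4 pairs, given here as a description of samples that share normalization and dissection. Fkbp5 and Zbtb16 had r = 0.75 (Spearman's rho 0.75), and 0.81 without the 2 samples farthest from the median of Fkbp5. Mt1 and Mt2 had r = 0.74 (rho 0.67), and 0.61 without the 2 farthest in Mt1. For Mt2 and Fam107a r was 0.82 (rho 0.89) and 0.79, and for Zbtb16 and Pdk4 0.73 (rho 0.84) and 0.81. The lowest pair was Tsc22d3 and Angptl4, at -0.60 (rho -0.53).

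Among 12155 genes with a mean of 50 or more, the genes most like each of the 10 by the same measure were found. For Fkbp5 they were Plin3 (r = 0.93), Golm1 (0.90) and H2-T24 (0.89), and for Zbtb16 they were Plin4, Ppargc1a and Nrip1 (0.89 each). For Tsc22d3 they were E230001N04Rik (0.94), Usp2 (0.93) and Slc25a33 (0.91), and for Sgk1 they were Wrb (0.94), Snupn (0.88) and Abcb9 (0.87). Mt2 and Fam107a shared Map3k6 as the nearest gene (0.93 and 0.83), and Mt2 was itself the third nearest to Fam107a (0.82). The nearest to Mt1 were Slc43a3 and Limk1 (0.88 each), to Pdk4 Pdpk1 (0.94), to Cdkn1a Hjurp (0.88) and to Angptl4 Gstz1 (0.94). These are descriptions over 15 samples that share their normalization, with no test.

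Upstream of these genes stand the receptor and its partners. The list held 12 genes of the receptor, its chaperones, its co-regulators and the enzymes that make or inactivate its hormone. Of these, 0 were called in either comparison with control. At an unadjusted p under 0.05 there was 1 in each, beside 15.1% of all genes in knockout and 9.43% in D489V. Nr3c1, the receptor gene, had a log2 difference of 0.32 in knockout against control (SE 0.13, adjusted p = 0.312). In D489V against control, Hsd11b1, the enzyme that regenerates active hormone inside cells, was at 0.87 (SE 0.27, adjusted p = 0.319) and the co-activator Ncoa1 at -0.17 (SE 0.10, adjusted p = 0.634).

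Of the 12, 1 was higher and 1 lower in knockout than in D489V, beside the 20.8% of all genes called. Nr3c1 rose in knockout by 0.42 (SE 0.13, adjusted p = 0.0372), from 2317 ± 170 in D489V to 3144 ± 618 in knockout (SD, n = 5), but knockout 3 held the most, 3941, and without that library the difference was 0.33 (adjusted p = 0.0743). Hsd11b1 fell by 1.12 (SE 0.22, adjusted p = 0.00719), from 417 ± 85.1 in D489V, where samples held 274 to 490, to 195 ± 59.1 in knockout, where they held 132 to 271 (SD, n = 5). The knockout and D489V samples of Hsd11b1 did not overlap. Hsd11b1 is also made by fat, whose markers were lower in knockout as given above, and the part of fat in this difference was not tested.

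Other glucocorticoid-induced genes lay mostly above control in both mutant groups without passing the test. Of 24 such genes, 20 had a positive log2 difference in knockout against control (median 0.38) and 19 in D489V against control (median 0.49), while 0 were called in either. At an unadjusted p under 0.05 there were 9 and 11 of them, beside 15.1% and 9.43% of all genes. Their summed level was 32976 and 34514 in controls 1 and 2, and 55270, 44440 and 41414 in controls 3 to 5. It was 46419 to 57469 in knockout and 46758 to 60851 in D489V, so control 3 lay inside both mutant ranges. Klf15, a transcription factor of muscle amino acid breakdown, was at 0.66 (SE 0.16, adjusted p = 0.249) and Foxo3, a driver of atrophy genes, at 0.56 (SE 0.15, adjusted p = 0.273) in knockout against control. In D489V against control, Errfi1, a feedback inhibitor of the EGF receptor, was at 0.80 (SE 0.14, adjusted p = 0.0638) and Cebpd, a transcription factor of the acute phase response, at 1.21 (SE 0.25, adjusted p = 0.0947).

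**Figure D5:**
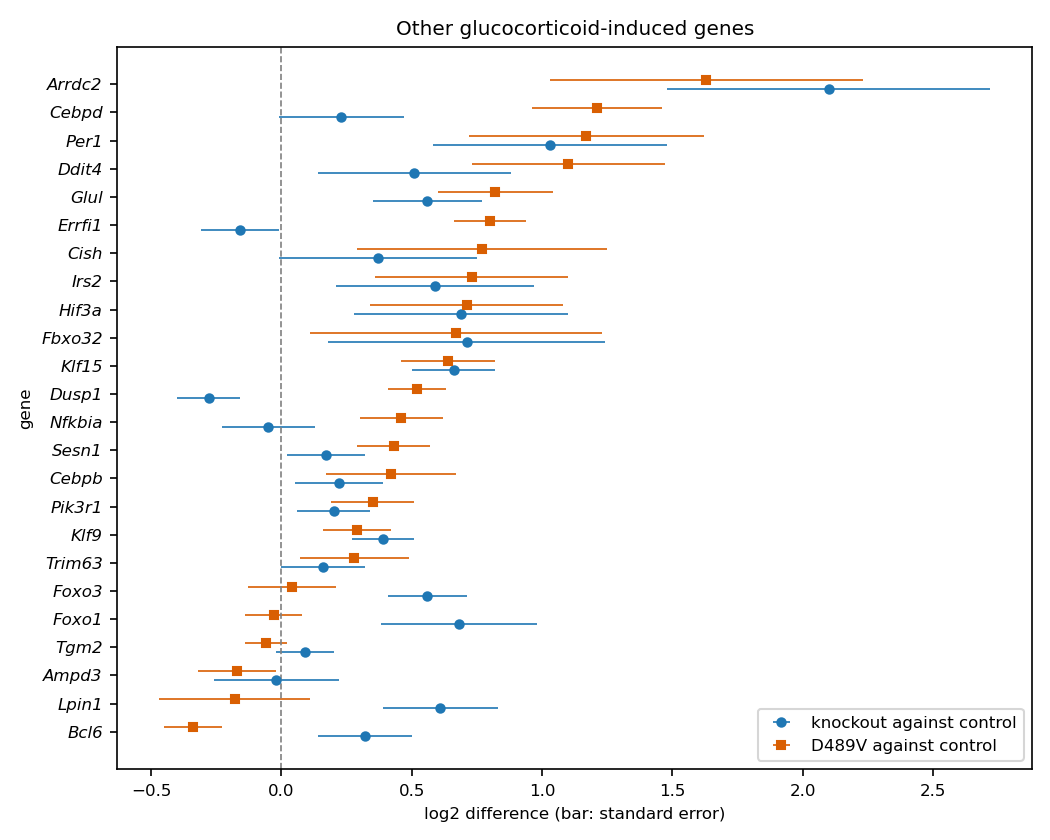
Log2 difference from control (horizontal axis; bars are standard errors) of 24 other glucocorticoid-induced genes (vertical axis) in knockout (circles) and D489V (squares), ordered by the D489V value. 20 circles and 19 squares lie above 0, and both series share the same 5 controls.

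Between the mutant groups the same list parted in both directions, with 3 of 24 genes higher and 4 lower in knockout than in D489V, beside the 20.8% of all genes called. Without knockout 3 there were 2 higher and 5 lower: Foxo3 lost its call (from 0.52, adjusted p = 0.0353, to 0.47, adjusted p = 0.0725) and Nfkbia, named because of this change, gained one (from -0.51, adjusted p = 0.0638, to -0.66, adjusted p = 0.0181). Errfi1 was lower in knockout and fell by 0.96 (SE 0.10, adjusted p = 4.40e-04), from 1960 ± 171 to 1010 ± 101 (SD, n = 5). Cebpd fell by 0.98 (SE 0.18, adjusted p = 0.00593) and Dusp1, a phosphatase of MAP kinases, fell by 0.80 (SE 0.13, adjusted p = 0.00400). Lpin1, a phosphatase of lipid synthesis, rose by 0.79 (SE 0.23, adjusted p = 0.0340), and Bcl6, a transcriptional repressor, by 0.66 (SE 0.16, adjusted p = 0.0183). Errfi1, Cebpd and Dusp1 also answer to growth factors. Immediate early genes are a further group that answers to them. Of 9 tested, 7 were lower in knockout than in D489V, beside the 20.8% of all genes called. Their summed level was 10616 to 14665 in knockout, 12114 to 18011 in controls and 16733 to 23335 in D489V. Among the controls it was highest in controls 1 and 2, at 14768 and 18011. The part of growth factor signalling in these differences was not tested.

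Fasting and fatty acid genes beside Pdk4 and Angptl4 numbered 24, of which 23 were tested, Fgf21 being too low. None were called against control in either mutant group. At an unadjusted p under 0.05 there were 4 in knockout and 5 in D489V, beside 15.1% and 9.43% of all genes. Ppargc1a, a co-activator of mitochondrial genes, was at 0.96 in knockout against control (SE 0.31, adjusted p = 0.302). Cpt1b, the muscle gate of fatty acid entry into mitochondria, was at -0.30 in knockout (SE 0.11, adjusted p = 0.305) and 0.47 in D489V (SE 0.09, adjusted p = 0.0845), and the triglyceride lipase gene Pnpla2 at 0.64 in D489V (SE 0.22, adjusted p = 0.374). In knockout against D489V, 3 of 23 were lower and 0 higher, beside the 20.8% of all genes called. Without knockout 3 the 2 lower ones were Cpt1b and Pnpla2. Cpt1b fell by 0.77 (SE 0.10, adjusted p = 0.00162), with 126 to 139 normalized counts in knockout and 221 to 246 in D489V, on either side of the 152 to 176 of controls. Pnpla2 fell by 0.77 (SE 0.18, adjusted p = 0.0161).

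Genes listed as induced by insulin and feeding, the opposite of fasting genes, were also read. The list of 14 includes Pck1, which insulin represses and which is also 1 of the 10 adipocyte markers. Of 14, 0 were called against control in either group. At an unadjusted p under 0.05 there were 3 in knockout and 2 in D489V, beside 15.1% and 9.43% of all genes. Hk2 was at 0.54 (SE 0.19, adjusted p = 0.305) and Elovl6 at -1.79 (SE 0.75, adjusted p = 0.313) in knockout, and Srebf1 at 0.57 (SE 0.21, adjusted p = 0.411) and Slc2a4 at 0.24 (SE 0.09, adjusted p = 0.422) in D489V. Between knockout and D489V, 7 of 14 were lower and 2 higher, beside the 20.8% of all genes called. The fatty acid synthesis genes Elovl6, Fasn and Acly were lower, at -2.72, -2.67 and -2.30, with adjusted p of 0.00325, 0.00589 and 0.00662. Scd1 was at -1.87 and Thrsp, a regulator of lipid synthesis, at -1.83, with adjusted p of 0.0301 and 0.0128. Without knockout 3, 5 of the 14 were lower and 0 higher. Among the genes that lost their calls were Scd1 (-1.65, adjusted p = 0.0634) and the 2 higher ones, Hk2 (0.53, adjusted p = 0.0551) and Irs1 (0.33, adjusted p = 0.0844). These are genes of fat as well as of fed muscle, the adipocyte markers were lower in knockout as given above, and their part was not tested.

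Metal genes beside Mt1 and Mt2 numbered 10, of which 7 were tested. None were called against control. At an unadjusted p under 0.05 there were 2 in knockout and 0 in D489V, beside 15.1% and 9.43% of all genes. Slc39a14, a zinc importer, was at 0.29 in knockout (SE 0.10, adjusted p = 0.305) and -0.22 in D489V (SE 0.11, adjusted p = 0.555), Hmox1 at -0.35 in knockout (SE 0.15, adjusted p = 0.315) and Slc39a8 at 0.44 in D489V (SE 0.32, adjusted p = 0.702). Between knockout and D489V, Slc39a14 alone of the 7 was called, beside the 20.8% of all genes called. It rose by 0.52 (SE 0.09, adjusted p = 0.00507), the opposite direction to Mt1.

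Genes listed with the p53 pathway beside Cdkn1a numbered 16, all tested. They include Cdkn1b and Cdkn1c, inhibitors related to Cdkn1a that are not established p53 targets. None of the 16 were called against control. At an unadjusted p under 0.05 there were 5 in knockout and 2 in D489V, beside 15.1% and 9.43% of all genes. The median log2 difference of the 16 was -0.04 in knockout. In D489V, 8 of the 16 were above control and 8 below. Tnfrsf10b, a death receptor, was at -0.94 (SE 0.28, adjusted p = 0.294) and Trp53 at -0.35 (SE 0.12, adjusted p = 0.305) in knockout. In D489V, the related inhibitor Cdkn1c was at -0.63 (SE 0.16, adjusted p = 0.209), the opposite sign to Cdkn1a, and Btg2 was at 0.45 (SE 0.15, adjusted p = 0.358). In knockout against D489V, 1 of the 16 was higher and 2 were lower, beside the 20.8% of all genes called. Ccng1 rose by 0.64 (SE 0.17, adjusted p = 0.0227), while Tnfrsf10b fell by 1.37 (SE 0.23, adjusted p = 0.00412) and Btg2 fell by 0.58 (SE 0.18, adjusted p = 0.0423). Without knockout 3, Btg2 lost its call (-0.60, adjusted p = 0.0645), which left 1 gene higher and 1 lower.

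Markers of other cells and of the daily clock also moved between the groups, and their part in the differences above was not tested. Their counts called between knockout and D489V stand beside the 20.8% of all genes called there. Of 10 endothelial markers, 0 were called in knockout against control and 10 were lower in knockout than in D489V, with a summed level of 10816 to 16857 in knockout, 17850 to 26600 in controls and 20506 to 24554 in D489V. The 12 clock genes, on which glucocorticoid also acts, had a summed level of 19863 to 27201 in knockout, 17823 to 20519 in controls and 19172 to 21953 in D489V, with 0 called against control and 3 higher and 1 lower in knockout than in D489V (2 and 0 without knockout 3). Of 6 erythrocyte markers, 5 were tested in knockout against D489V and all 5 were lower, with sums of 3175 to 8038 in knockout, 5682 to 8420 in controls and 12462 to 22164 in D489V. The D489V samples, which were also those high in Mt1, Mt2 and Cdkn1a, did not overlap the controls in this sum, although 0 erythrocyte markers were called in D489V against control. Of 8 Schwann cell markers, 7 were lower in knockout than in D489V, and 4 without knockout 3. Without that library the counts of called adipocyte, endothelial, erythrocyte and immediate early markers were as given. Lymphocyte markers summed to 107 to 6574 in knockout and 102 to 7008 in controls, against 170 to 435 in D489V. Ms4a1, Cd8a and Glycam1 were at 0 in at least 1 knockout sample. The lymphocyte sum was 112 and 107 in knockout 1 and 2, and 2660, 6574 and 1863 in knockout 3 to 5. Control 5 held the 7008, and the other controls held 102 to 216. The slow fibre sum was 8528 and 22880 in knockout 1 and 2, and 205561, 151630 and 130419 in knockout 3 to 5. Of the 8 slow fibre markers, 1 was called between knockout and D489V. Knockout 3 to 5 were also the 3 samples highest in Zbtb16. The slow fibre sum was 17200 to 191609 in controls and 40021 to 198963 in D489V. Control 5 and D489V 3 held the 191609 and 198963, with 704 and 488 normalized counts of Zbtb16.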

How the data were processed

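Poly(A) RNA of 15 muscles was sequenced from strand-preserving libraries, per the labels' protocols. The unit of both deposited tables is recorded as a score, since the authors' gene counts had been normalized between samples (per the tables' names) and hold whole numbers only. The submitters' processing notes list Trim Galore 0.6.0, cutadapt, FastQC, STAR 2.7.0e and DESeq2 1.26.0 with build GRCm38. The counting tool, and which step used which setting, are not given in the sources used here. Both tables hold 55536 genes and the same 5 control columns, and each sample's median ratio to the geometric mean of all samples was 1.0069 to 1.0097, so knockout and D489V were compared directly. All identifiers matched GENCODE M21, and the 27 names that differed between tables did not include these genes.

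Groups were fitted 5 against 5, two-sided, on log2(value + 1) by limma 3.58.1 under R 4.3.3 with a mean-variance trend, for genes at 10 or more in at least 5 of 10 samples, with Benjamini-Hochberg adjustment over all genes tested. All 10 genes passed that filter in each comparison. Fold changes on this scale understate the changes of low genes. Whole reads were not recovered from the rounded values, so no test on read counts was run. The fit was tested on simulated data. The 10 genes and the gene lists were chosen with earlier results of these data known, and named list genes are up to 5 called ones by size or, where none were called, the 2 with the smallest p. Values of 2 such list genes are not reported here. The alternatives changed the pseudocount, filter, scaling, variance model, sample weights and samples fitted, added the replicate number, or left out each sample. Python 3.11.15, numpy 2.4.6, pandas 2.3.3, scipy 1.17.1 and matplotlib 3.10.9 made the other values and plots.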

Additional observations from a re-analysis of the deposited data

Results flagged for a closer look

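The knockout and D489V groups differed from each other, by the test of that difference itself, in 4 of the 10 genes. Of all genes, 20.8% were called in this comparison. Without knockout 3, Mt1 and Cdkn1a kept their calls, while Angptl4 (limma adjusted p = 0.0660) and Fam107a (limma adjusted p = 0.0506) lost them. The log2 difference of knockout against D489V was -1.34 for Mt1 (limma adjusted p = 0.00593; means 299 and 746 normalized counts), -0.96 for Cdkn1a (0.0188; 1050 and 2106), -1.62 for Angptl4 (0.0323; 475 and 1632) and 0.78 for Fam107a (0.0328; 180 and 103). Relative to control, Mt1 and Angptl4 had opposite signs in the mutant groups, while Cdkn1a and Fam107a were above control in both. No sample was far from its group in any of the 30 groups of 5 values tested by the gap to the nearest other sample (a gap above 0.71 of the range), where 1.5 would be found by chance.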

How the results depend on the processing

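Of 540 values for the 10 genes in 3 comparisons under 18 alternatives each, 517 kept the side of the threshold, 14 lost it and 9 gained it, and no called value changed sign. Pdk4 changed sign in 2 alternatives for knockout against control, 5 for D489V against control and 3 for knockout against D489V, never past the threshold. In knockout against control 3 genes were called with upper-quartile rescaling and 16 in one fit over all 15 samples, where 1 of the 10 genes (Fam107a) was called. Leaving out one sample gave 1 to 7 genes, the 7 without knockout 2, and 0 of the 10. In D489V against control, pseudocount 5 gave 19 genes, a mean of 50 or more 4, upper-quartile rescaling 23, robust eBayes 21, array weights 86 and one fit over all samples 1, and 1 of the 10 genes (Mt2) was called with array weights. Leaving out one sample gave 2 genes (without control 2 or 4 or D489V 2 or 5) to 26 (without D489V 3), and 0 of the 10. In knockout against D489V it gave 1398 (without D489V 1) to 3686 genes, and 1 to 5 of the 10: 1 without D489V 1 and 2 without D489V 2 or knockout 3. For none of these was the cause tested.

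With the replicate block, 1, 7 and 2208 genes and 0, 1 and 5 of the 10 genes were called in the 3 comparisons, with Mt2 passing in D489V against control (adjusted p = 0.0405) and Zbtb16 in knockout against D489V (adjusted p = 0.0449). Same-numbered samples deviated together with correlations of -0.49 to 0.47, so numbers were not taken to pair samples. Samples number 5 a group, and an exact permutation test cannot give a p under 0.00794.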

Other observations

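The balance of the metallothionein pair was read as Mt2 in percent of Mt1, a ratio chosen after the values were seen. Mt2 was 32.5% of Mt1 in controls (SD 11.6, n = 5), 57.0% in knockout (SD 14.9, n = 5) and 44.0% in D489V (SD 4.26, n = 5). The log2 ratio was 0.86 higher in knockout than in control (exact two-sided permutation p = 0.0238) and 0.52 higher in D489V than in control (exact permutation p = 0.0476). Knockout against D489V differed by 0.34 (exact permutation p = 0.119). Adjusted over the 3 comparisons these p-values were 0.0714, 0.0714 and 0.119, so none passed. Knockout 4 and 5, which were high in Fkbp5 and Zbtb16, held 296 and 291 normalized counts of Mt2, against 92 to 122 in knockout 1 to 3.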
